A study of Homo sapiens with 6 samples.

Results

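The genes described here are the BH3-only genes BBC3, PMAIP1, BMF, BID, BAD, BIK and HRK and the Bax-type effectors BAX, BAK1 and BOK, 10 genes of the 26329 gene symbols quantified. Members were chosen by symbol, so that every RefSeq isoform carrying one of these symbols was taken (32 of 51398 isoforms), and BCL2L11 (BIM) was left out. The cells were PC-9, a human lung adenocarcinoma line with an activating EGFR deletion, grown untreated in RPMI with 10% FBS. They carried a scrambled shRNA (shScr) or one of a pair of shRNAs against the splicing factor RBM10 (shRBM10#1 and shRBM10#2), with 2 libraries of total RNA per condition and 6 in all. In the methods the control is parental PC-9, but the control libraries are labelled shScr and carry that name here. All conditions share 1 cell line, and neither labels nor methods say whether the 2 libraries of a condition came from separate cultures or infections, so that p-values measure the spread between these libraries, which may be technical.

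Mitochondrial apoptosis is decided by the balance within the Bcl-2 family. BH3-only proteins sense stress and bind, through a short amphipathic helix called the BH3 domain, either the anti-apoptotic members such as Bcl-xL and Mcl-1 or the effectors themselves. Activated BAX and BAK1 oligomerize in the outer mitochondrial membrane and release cytochrome c, which triggers caspase activation through APAF1. In EGFR-mutant lung cancer cells, EGFR inhibitors are known to kill through BH3-only proteins, among which BIM, PUMA (BBC3) and BMF are the best studied.

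Every one of these proteins carries a BH3 domain, whose core is a leucine, 3 further residues, a small residue (glycine, alanine or serine) and an aspartate. The coding sequence of that core is shown for each gene because it decides below which isoforms can encode it. Each stretch of 30 nt was read 5′ to 3′ from the GENCODE 29 transcript that corresponds to the isoform with the highest TPM, and capitals mark the codons of the conserved leucine and aspartate.
BBC3: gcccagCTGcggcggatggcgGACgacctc
PMAIP1: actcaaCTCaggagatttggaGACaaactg
BMF: cgaaagCTTcagtgcattgcaGACcagttc
BID: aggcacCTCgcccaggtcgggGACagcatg
BAD: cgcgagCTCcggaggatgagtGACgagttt
BIK: ctgcggCTGgcctgcatcgggGACgagatg
HRK: gcccggCTCaaggcgctaggcGACgagctg
BAX: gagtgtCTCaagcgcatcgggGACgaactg
BAK1: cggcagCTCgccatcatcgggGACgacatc
BOK: gcggtgCTGctgcgcctgggcGATgagctg

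On GRCh38 the core of BBC3 lies in coding exon sequence at chr19:47226585-47226614 (minus strand, exon 3), that of PMAIP1 at chr18:59902667-59902696 (plus strand, exon 2) and that of BMF at chr15:40104201-40104230 (minus strand, exon 3). The core of BID lies at chr22:17739421-17739450 (minus strand, exon 4), that of BAD at chr11:64271628-64271657 (minus strand, exon 3), that of BIK at chr22:43127710-43127739 (plus strand, exon 3) and that of HRK at chr12:116881176-116881205 (minus strand, exon 1). Among the effectors, the BAX core lies at chr19:48955781-48955810 (plus strand, exon 3) and the BAK1 core at chr6:33575393-33575422 (minus strand, exon 4). The BOK core is split by an intron, between exons 2 and 3 on the plus strand (chr2:241559685-241562358), whereas each of the other cores falls within 1 exon. The residue pattern itself is loose. It occurred in the proteins of 6912 of 19544 coding genes (35.4%), so it identifies nothing by itself. NM_001196 of BID matched it at residues 25 and 90. The match at 90, with a glycine before the aspartate, was taken as the core. NM_001127240 and NM_001127242 of BBC3 matched it at residues 251 and 91. These matches were not at the position of the core, so both isoforms count as lacking it.

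RBM10, the targeted gene, was measured first as a check of the labels. It stood at 38.5 and 45.7 TPM (a length-corrected share of all transcripts) with shScr, 28.4 and 25.8 TPM under shRBM10#1, and 13.1 and 12.8 TPM under shRBM10#2. Both knockdowns (KD) lay below shScr without overlap, to 68.6% of the control level with shRBM10#1 (log2 FC −0.54, FDR = 0.000229, edgeR quasi-likelihood test) and 31.9% with shRBM10#2 (log2 FC −1.65, FDR = 5.02e-08, edgeR). The libraries held 31953729 to 37557507 expected counts, and by their effective lengths the fragments averaged 231.2 nt in shScr replicate 2 against 264.9 to 281.2 nt elsewhere. The 7 epithelial markers (EPCAM, CDH1, KRT7, KRT8, KRT18, KRT19 and EGFR) were present in each library and summed to 22847 to 29030 TPM, whereas the leukocyte markers PTPRC and CD3E stayed at or below 0.11 TPM. The sum of the 9 markers of other cell types was 104 and 121 TPM with shScr, 86.4 and 84.3 TPM under shRBM10#1 and 82.0 and 84.2 TPM under shRBM10#2, nearly all of it CD68 (76.8 to 116 TPM), a lysosomal gene. The liver gene ALB was at 0 in both shScr libraries, at 0.05 and 0.02 TPM under shRBM10#1, and at 1.54 and 1.81 TPM under shRBM10#2. Of the epithelial markers KRT19 was higher with shRBM10#1 (log2 FC 0.28, FDR = 0.0121, edgeR) and lower with shRBM10#2 (−0.28, FDR = 0.00851, edgeR). EPCAM was higher with shRBM10#2 (0.24, FDR = 0.0180, edgeR), and EGFR was lower with both (−0.29, FDR = 0.0440, and −0.38, FDR = 0.00755, edgeR). The part of these markers in the results below was not tested. In bulk RNA, fewer cells with a transcript and less of it per cell cannot be told apart.

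All 10 genes were detected in all libraries and passed the filter on low counts. Their levels spanned a wide range, with the mean of BAX in shScr 63.0 times that of HRK. BAX was highest at 151 to 196 TPM over the 6 libraries, followed by BAD at 104 to 133 TPM and BID at 57.4 to 62.9 TPM, and none of these ranges touched the next. BOK (31.8 to 43.6 TPM) and BAK1 (29.4 to 34.3 TPM) overlapped in range, although BOK exceeded BAK1 within each of the 6 libraries. PMAIP1 (7.54 to 13.7 TPM) and BBC3 (9.50 to 11.9 TPM) overlapped and changed order between libraries, with PMAIP1 above BBC3 in 4 of 6. BIK (4.82 to 7.93 TPM) and BMF (4.45 to 7.28 TPM) also overlapped, with BIK above BMF in 5 of 6. HRK was lowest at 2.59 to 3.44 TPM, and its range did not reach that of BMF.

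**Figure D1:**
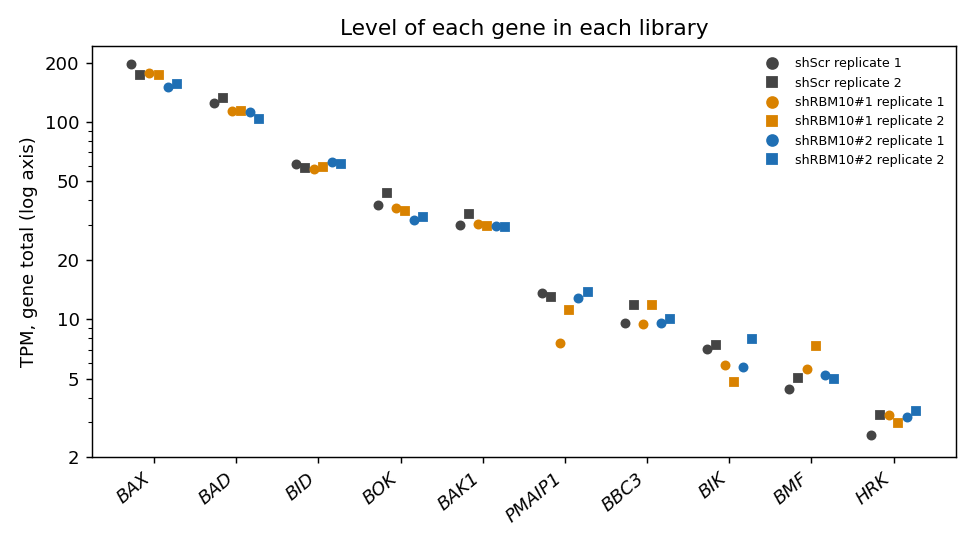
Level of each BH3-only gene and effector in each of the 6 libraries, in TPM on a log axis, ordered by the shScr mean. BAX at 151 to 196 TPM is highest and HRK at 2.59 to 3.44 TPM lowest, and most genes differ far more from each other than between conditions.

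The class totals show where most of this RNA lies. The 7 BH3-only genes summed to 223 and 232 TPM with shScr, 203 and 211 TPM under shRBM10#1, and 212 and 205 TPM under shRBM10#2. The 3 effectors summed to 264 and 251 TPM with shScr, 244 and 239 TPM under shRBM10#1, and 212 and 218 TPM under shRBM10#2. In TPM each KD library lay below both shScr libraries in both classes, and for the effectors shRBM10#2 also lay below shRBM10#1. Class sums were not taken on counts scaled by library size (CPM), the scale of the tests below. On CPM, BAX with shRBM10#1 (65.1 and 66.1) lay between the shScr libraries (72.3 and 61.0). BID was lowest in shScr replicate 2 (68.2 CPM), so the separation in TPM need not hold on CPM. BAX makes up most of the effector sum and BAD most of the BH3-only sum, so these totals follow 2 genes, and no test was run on them.

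The first comparison asked whether RBM10 KD, with the 4 KD libraries as one group, moved any of these genes. None of the 10 passed an FDR below 0.05 (edgeR), where 1.62% of the 14215 genes tested did, and 0 of the 10 had an unadjusted p below 0.05 against 17.2% of all genes. The stricter criteria, which add an absolute log2 FC above 1, were met by 0.394% of all genes. DESeq2 and limma on log2(TPM + 1) likewise called 0, where they called 5.05% and 0.915% of all genes. RBM10 itself, at a log2 FC of −0.99, did not pass this pooled fit (FDR = 0.145, edgeR), in which the gap between the shRNAs counts as spread. The smallest FDR was that of BMF (0.305, edgeR), whose log2 FC was 0.37 with a 95% interval from −0.01 to 0.74. The median log2 FC of the 10 genes was −0.09, beside 0.01 over all genes. Averaging the coefficients of the shRNAs in a fit with 1 coefficient per condition, which keeps the gap between the shRNAs out of the variance, called BMF (log2 FC 0.36, FDR = 0.0432, edgeR) and BOK (log2 FC −0.18, FDR = 0.0450, edgeR), or 2 of 10, where 18.4% of all genes passed in that fit. The FDR in the pooled comparison ranged from 0.0432 to 0.522 for BMF and from 0.0450 to 0.497 for BOK over the alternatives with all libraries.

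Each shRNA was then compared with shScr on its own. With shRBM10#1, 1 of the 10 genes passed (BMF, higher), where 14.1% of all genes passed and 7.14% passed in the higher direction. With shRBM10#2, 3 of the 10 passed (BOK, BAX and BAD, all lower), where 25.9% of all genes passed and 13.9% passed in the lower direction. No gene passed with both. With both directions counted, neither number stands far from the share over all genes, and 0 of the 10 had such an FDR together with an absolute log2 FC above 1, against 1.88% of all genes with shRBM10#1 and 1.3% with shRBM10#2. The median absolute log2 FC was 0.10 with shRBM10#1 and 0.14 with shRBM10#2, beside 0.15 and 0.19 over all genes. Both comparisons use the same shScr libraries. Where all KD libraries are said to lie above or below shScr, the share of all genes or isoforms ordered that way is not given. When a library is left out, the one that remains in its condition is assumed to vary like the other conditions, here and below. Without shScr replicate 1 or replicate 2, 0 of 10 genes passed with shRBM10#1 and 1 or 2 with shRBM10#2, and without either shRBM10#2 library 0 passed with shRBM10#2. Without shRBM10#1 replicate 2 the 1 gene to pass with shRBM10#1 was PMAIP1 in place of BMF.

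**Figure D2:**
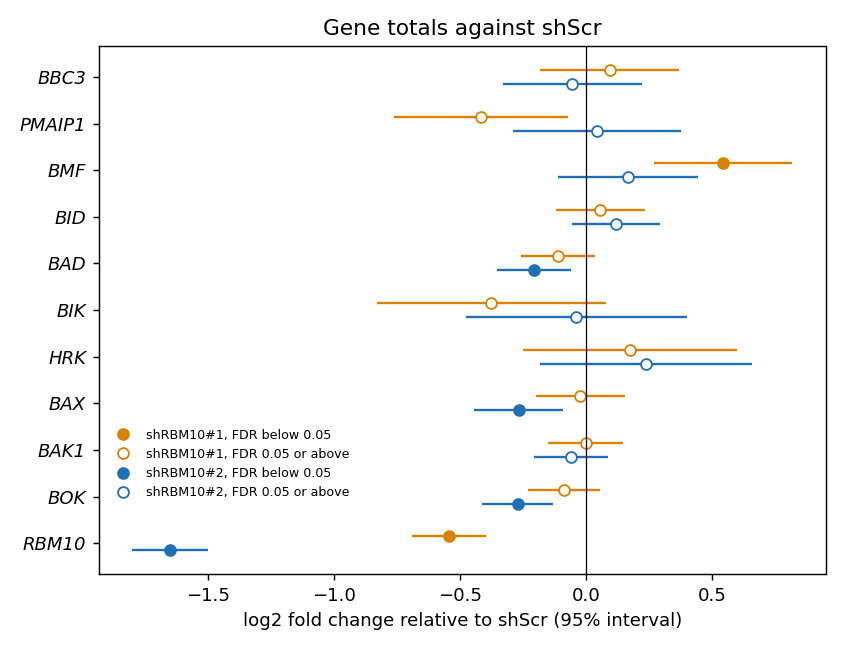
Log2 fold change of each gene total relative to shScr with its 95% interval (edgeR), for shRBM10#1 in orange and shRBM10#2 in blue, with filled points at FDR below 0.05. RBM10 lies far to the left (−0.54 and −1.65), whereas the BH3-only genes and effectors stay between −0.42 and 0.545.

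BMF, a BH3-only protein held at the cytoskeleton through dynein light chain and released on loss of attachment or of growth factor signals, rose with shRBM10#1. Its gene total was 13.5 and 13.2 CPM (counts scaled by library size) with shScr, 16.5 and 22.4 CPM under shRBM10#1, and 15.3 and 14.7 CPM under shRBM10#2. Each KD library lay above both shScr libraries on this scale, with shRBM10#1 replicate 2 highest. The log2 FC with shRBM10#1 was 0.545 (SE 0.127, 95% interval 0.27 to 0.82, FDR = 0.0125, edgeR), or 145.9% of the shScr level. The call rested on few libraries: without shRBM10#1 replicate 2 the log2 FC was 0.30 (FDR = 0.104, edgeR), and without shScr replicate 1 or 2 it was 0.56 and 0.53 (FDR = 0.0654 and 0.0907, edgeR). On log2(TPM + 1) the difference was 0.36 (FDR = 0.173, limma), the highest FDR among alternatives that ran from 3.36e-05 to 0.173. With shRBM10#2 the log2 FC of BMF was 0.17 (95% interval −0.11 to 0.44, FDR = 0.375, edgeR), and in TPM the shRBM10#2 libraries (5.19 and 4.98) overlapped with shScr (4.45 and 5.06). BMF-AS1 shares 461 exon bases with BMF on the opposite strand, its level was not analysed here, and the strand protocol is not given in the sources used here. The shRNAs differed from each other for BMF, with shRBM10#2 lower by a log2 FC of −0.38 (FDR = 0.0401, edgeR).

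PMAIP1 encodes NOXA, a small BH3-only protein that neutralizes Mcl-1. It was counted at 15.9 and 13.4 CPM with shScr, 8.63 and 13.2 CPM under shRBM10#1, and 14.6 and 15.6 CPM under shRBM10#2. A single library, shRBM10#1 replicate 1, stood low, with 270 expected counts (exact Poisson 95% interval 238.8 to 304.2) against 442 to 599 in the others. With shRBM10#1 the log2 FC was −0.42 (SE 0.159, 95% interval −0.76 to −0.07, FDR = 0.105, edgeR), which did not pass. Without shRBM10#1 replicate 1 it was −0.15 (FDR = 0.437, edgeR), and without shRBM10#1 replicate 2 it was −0.76 (FDR = 0.00462, edgeR). Without any filter on low counts PMAIP1 passed with all libraries (FDR = 0.00564, edgeR), the lowest of alternatives that reached 0.103. With shRBM10#2 the log2 FC was 0.04 (95% interval −0.29 to 0.38, FDR = 0.860, edgeR). The direct comparison put PMAIP1 higher with shRBM10#2 than with shRBM10#1 (log2 FC 0.46, FDR = 0.0479, edgeR), and without shRBM10#1 replicate 1 this difference was 0.19 (FDR = 0.275, edgeR).

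BBC3 encodes PUMA, a BH3-only protein that binds all anti-apoptotic family members and is a classical p53 target. Its total was 9.79 and 10.4 CPM with shScr, 9.40 and 12.1 CPM under shRBM10#1, and 9.40 and 10.1 CPM under shRBM10#2, so that the conditions overlapped. The 95% intervals of its log2 FC were −0.18 to 0.37 with shRBM10#1 and −0.33 to 0.22 with shRBM10#2, both around 0. The sign of its small difference also depended on the scale, since with shRBM10#1 it was 0.09 in edgeR and −0.0047 on log2(TPM + 1).

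BID links death receptors to mitochondria once caspase-8 cuts it. It was counted at 80.7 and 68.2 CPM with shScr, 74.8 and 80.1 CPM under shRBM10#1, and 81.6 and 80.0 CPM under shRBM10#2. The low value was that of shScr replicate 2, and the other 5 libraries lay between 74.8 and 81.6 CPM. In TPM shScr replicate 2 (58.4) lay within the range of the others (57.4 to 62.9). Whether its shorter fragments had a part in the low CPM was not tested. The log2 FC was 0.06 with shRBM10#1 (95% interval −0.12 to 0.23) and 0.12 with shRBM10#2 (95% interval −0.06 to 0.29), and neither passed (FDR = 0.693 and 0.313, edgeR).

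BAD, which binds Bcl-xL and is silenced by phosphorylation downstream of growth factor signalling, was lower with shRBM10#2. Its total was 62.0 and 60.7 CPM with shScr, 56.0 and 57.5 CPM under shRBM10#1, and 54.9 and 51.4 CPM under shRBM10#2. All KD libraries lay below shScr, and shRBM10#2 also lay below shRBM10#1. The log2 FC was −0.21 with shRBM10#2 (SE 0.0681, 95% interval −0.35 to −0.06, FDR = 0.0405, edgeR) and −0.11 with shRBM10#1 (95% interval −0.26 to 0.04, FDR = 0.310, edgeR). The call was at the threshold, since DESeq2 gave an FDR of 0.0510 in a range from 0.0363 to 0.0691 over the alternatives, and it was lost without either shScr library (FDR = 0.134 and 0.0832, edgeR) and without either shRBM10#2 library (FDR = 0.131 and 0.362, edgeR). BAD shares 404 bases of exon with GPR137 on the opposite strand, and GPR137 stood at 35.3 and 36.7 TPM with shScr, 36.6 and 34.7 TPM under shRBM10#1, and 28.3 and 26.8 TPM under shRBM10#2. With the strand protocol not given, reads of the shared bases cannot be assigned to one of these genes with certainty.

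BIK and HRK, BH3-only genes of low abundance here, were limited by counting. BIK was counted at 3.33 and 3.25 CPM with shScr, 2.75 and 2.33 CPM under shRBM10#1, and 2.67 and 3.73 CPM under shRBM10#2. These values stand for 86 to 143 expected counts per library, and a count of 86 has an exact Poisson 95% interval of 68.8 to 106.2. The log2 FC of BIK with shRBM10#1 was −0.38 (95% interval −0.83 to 0.08, FDR = 0.266, edgeR), and that with shRBM10#2 was −0.04 (95% interval −0.48 to 0.40, FDR = 0.910, edgeR). HRK was counted at 2.22 and 2.52 CPM with shScr, 2.75 and 2.61 CPM under shRBM10#1, and 2.67 and 2.92 CPM under shRBM10#2. Each KD library was above both shScr libraries, but the log2 FC values of 0.17 (95% interval −0.25 to 0.60) and 0.24 (95% interval −0.18 to 0.66) did not pass (FDR = 0.604 and 0.401, edgeR). The isoform of HRK in the files is 1499 nt long against 5789 nt for its GENCODE transcript, so its level per length rests on the shorter model.

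BAX, the main effector here by level, was lower with shRBM10#2. It was counted at 72.3 and 61.0 CPM with shScr, 65.1 and 66.1 CPM under shRBM10#1, and 54.0 and 56.7 CPM under shRBM10#2. The shRBM10#2 libraries lay below all others, whereas shRBM10#1 lay between the shScr libraries. With shRBM10#2 the log2 FC was −0.27 (SE 0.0817, 95% interval −0.44 to −0.09, FDR = 0.0305, edgeR), or 83.1% of shScr, and with shRBM10#1 it was −0.02 (95% interval −0.20 to 0.15, FDR = 0.891, edgeR). The size of this difference depended on the shScr library, being −0.14 without shScr replicate 1 (FDR = 0.250, edgeR) and −0.39 without shScr replicate 2 (FDR = 0.0109, edgeR). Without shRBM10#2 replicate 1 or 2 the FDR was 0.222 and 0.131 (edgeR). Between the shRNAs, BAX was lower with shRBM10#2 by a log2 FC of −0.24 (FDR = 0.0440, edgeR).

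BOK, an effector that does not depend on the other family members in the way BAX and BAK1 do, had narrow replicate pairs. It was counted at 63.4 and 63.7 CPM with shScr, 59.6 and 60.1 CPM under shRBM10#1, and 51.5 and 53.8 CPM under shRBM10#2, with no overlap between conditions. The log2 FC was −0.27 with shRBM10#2 (SE 0.0658, 95% interval −0.41 to −0.13, FDR = 0.0103, edgeR) and −0.09 with shRBM10#1 (95% interval −0.23 to 0.06, FDR = 0.429, edgeR). The difference between the shRNAs was −0.19 (FDR = 0.0550, edgeR). The call with shRBM10#2 was lost without shRBM10#2 replicate 1 (−0.24, FDR = 0.151, edgeR) or replicate 2 (−0.30, FDR = 0.0853, edgeR), and BOK-AS1, which shares 201 exon bases on the opposite strand, was at 0.16 to 0.75 TPM.

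BAK1, the effector that sits in the mitochondrial membrane at rest, did not pass in any comparison. It was counted at 40.3 and 40.7 CPM with shScr, 40.2 and 40.7 CPM under shRBM10#1, and 38.9 and 38.8 CPM under shRBM10#2. The 95% interval of its log2 FC was −0.15 to 0.15 with shRBM10#1 and −0.21 to 0.09 with shRBM10#2. With shRBM10#2 the interval of BAK1 overlapped those of BAX (−0.44 to −0.09) and BOK (−0.41 to −0.13). No test compared these genes with each other.

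**Figure D3:**
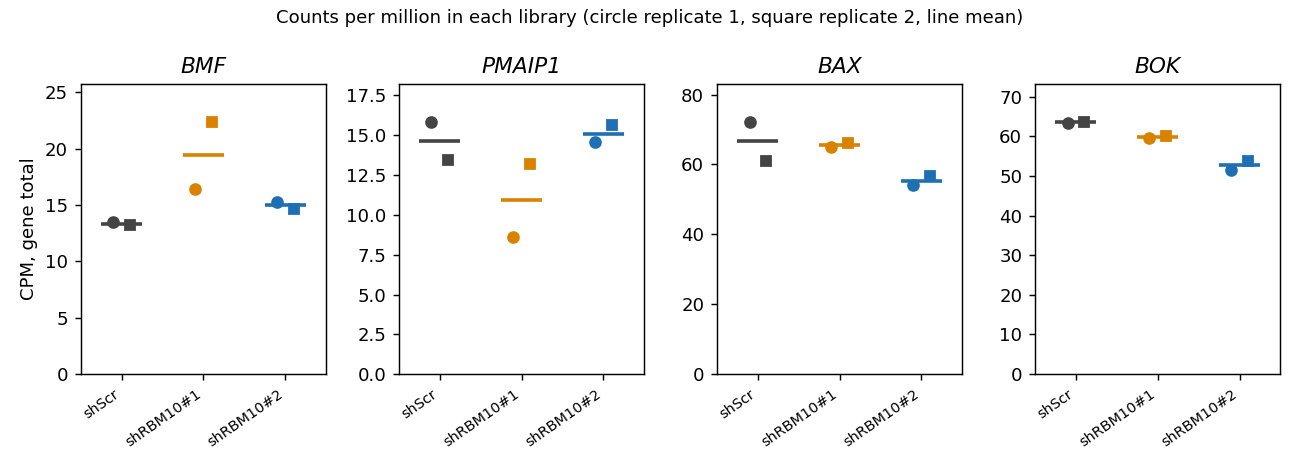
CPM of the gene totals of BMF, PMAIP1, BAX and BOK in each library, with circles for replicate 1, squares for replicate 2, a line at the mean of each condition and axes that start at 0. BMF is highest in shRBM10#1 replicate 2 (22.4 CPM), PMAIP1 lowest in shRBM10#1 replicate 1 (8.63 CPM), and BAX and BOK are lowest in both shRBM10#2 libraries.

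The shRNAs were compared directly because they lowered RBM10 to different degrees. Of the 10 genes, 3 passed between shRBM10#2 and shRBM10#1 (BMF and BAX lower and PMAIP1 higher with shRBM10#2), where 25.5% of all genes did (11% higher, 14.5% lower), and 0 also had an absolute log2 FC above 1, against 1.19% of all genes. For BMF and PMAIP1 the shRNA with more RBM10 left, shRBM10#1, stood farther from shScr, and for BAX it was shRBM10#2. With any single library left out, at most 1 of the 10 genes passed in this comparison, and 0 passed without either shRBM10#2 library.

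Isoforms were examined next because RBM10 is a splicing regulator. The files hold 32 isoforms of these genes: 9 of BAX, 7 of BID, 4 each of BBC3 and BMF, 2 each of BAD and HRK and 1 each of the others. The filter on low counts kept 25, and the 7 below it reached at most 74.1 expected counts in any library. By the annotation 17 isoforms encode the BH3 core, 9 do not, and 6 were left undecided, because their GENCODE transcript is incomplete or is matched by a second isoform and differs from them in length. A difference in length alone did not leave an isoform undecided. The core-less calls of BMF rest on GENCODE transcripts much shorter than the isoforms in the files, 630 against 4536 nt for NM_001003943 and 492 against 4388 nt for NM_001003942. BAD, BAK1, BIK, BOK and PMAIP1 have no isoform without the core.

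None of the 25 isoforms passed an FDR below 0.05 in any comparison (edgeR), where the share of all isoforms that passed was 0% for pooled KD, 0.0302% for shRBM10#1 and 2.26% for shRBM10#2. The unadjusted p was below 0.05 for 2, 1 and 4 of the 25, against 10.9%, 14.5% and 21.5% of all isoforms. DESeq2 called 0, 0 and 4 of the 25, where it called 3.11%, 9.35% and 17.7% of all isoforms with an adjusted p. The usage test, which asks whether isoforms of a gene move relative to each other, covered BAD, BAX, BBC3, BID and BMF. It called 0 of these 5 genes in each comparison (edgeR diffSpliceDGE), against 0.515%, 0.172% and 2.75% of all genes tested. No unadjusted gene p was below 0.05, the lowest being 0.444, and limma's diffSplice likewise called 0, where it called 0.64%, 0.656% and 8.91% of all genes. On simulated counts, a 4-fold change (log2 FC 2) in an isoform was recovered in 51.5% to 59.0% of cases and a usage change of that size in 34.5% to 39.0%, so these 0 calls leave room for changes of this size and smaller.

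The BAX locus had the most isoforms in use, and 8 of its 9 isoforms had counts in every library. NM_138761 encodes the standard BAX protein of 192 residues and gave 37.5 and 30.03 CPM with shScr, 36.2 and 41.3 CPM under shRBM10#1, and 29.9 and 32.1 CPM under shRBM10#2. NM_004324, which encodes a protein of 218 residues that keeps the BH3 core, gave 15.2 and 16.3 CPM with shScr, 13.4 and 12.5 CPM under shRBM10#1, and 8.96 and 9.94 CPM under shRBM10#2. The conditions did not overlap for NM_004324, whereas they did for NM_138761. The log2 FC of NM_004324 with shRBM10#2 was −0.74 (95% interval −1.03 to −0.44, unadjusted p = 0.00115, FDR = 0.0503, edgeR), just short of the threshold. It passed where at least 10 counts were required in each library (FDR = 0.0290, edgeR) and in DESeq2 (FDR = 2.20e-06), and its FDR ran up to 0.121 among the alternatives. With shRBM10#1 its log2 FC was −0.28 (FDR = 0.357, edgeR).

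As a share of BAX counts, NM_004324 took 21.0% (Wilson 95% interval 19.4 to 22.7) and 26.7% (24.8 to 28.7) with shScr and 20.7% (19.0 to 22.5) and 18.9% (17.4 to 20.5) with shRBM10#1. With shRBM10#2 it took 16.5% (14.98 to 18.2) and 17.5% (16.0 to 19.1). The shRBM10#2 shares were the lowest, but the gap between the shScr replicates was larger than that between shScr replicate 1 and either shRBM10#2 library. Such intervals cover counting error only, not the division of shared reads by RSEM. The isoform without the core, NM_138763 (143 residues), gave 20.02 and 20.2 TPM with shScr, 18.5 and 14.3 TPM under shRBM10#1, and 21.3 and 20.2 TPM under shRBM10#2. Isoforms with the core made up 69.4% and 72.9% of BAX TPM with shScr, 73.3% and 78.5% with shRBM10#1, and 68.3% and 70.3% with shRBM10#2, with a further 13.2% to 20.3% undecided.

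The other BAX isoforms were minor and variable. NM_001291430 gave 3.24 and 1.73 CPM with shScr, 1.31 and 0.79 CPM under shRBM10#1, and 1.27 and 1.39 CPM under shRBM10#2. All KD libraries were below shScr, and pooled KD gave a log2 FC of −1.06 (unadjusted p = 0.0319, FDR = 0.418, edgeR). NM_001291428 and NM_001291429 ranged from 3.87 to 6.29 and from 1.74 to 3.76 CPM with overlapping conditions, NM_001291431 from 0.21 to 1.195 CPM and NR_027882 from 0.05 to 0.41 CPM. NM_138764 had counts only in shRBM10#2 replicate 1 (2.45 expected counts).

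BID was carried mainly by NM_001196 (195 residues), at 66.6 and 52.9 CPM with shScr, 60.4 and 65.8 CPM under shRBM10#1, and 66.2 and 66.5 CPM under shRBM10#2. NM_001244570 and NM_197967 encode a short protein of 99 residues without the BH3 core. NM_001244570 gave 8.86 and 7.55 CPM with shScr, 7.33 and 7.44 CPM under shRBM10#1, and 5.88 and 5.52 CPM under shRBM10#2, and NM_197967 gave 3.05 and 5.07, 5.23 and 5.29, and 6.42 and 5.67 CPM. The former was lowest and the latter highest with shRBM10#2, and neither passed in edgeR with shRBM10#2 (log2 FC −0.53, FDR = 0.139, and 0.57, FDR = 0.318). DESeq2 called the former (FDR = 0.0262). Together the isoforms without the core gave 17.3% and 22.2% of BID TPM with shScr, 19.4% and 18.1% with shRBM10#1, and 18.4% and 15.9% with shRBM10#2. These ranges overlapped, so the share of BID able to encode the BH3 domain did not separate the conditions. The remaining isoforms past the filter, NM_197966 and NM_001244569, stayed between 0.52 and 1.91 CPM.

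BMF varied widely in isoform assignment. NM_033503 and NM_001003940 encode the same protein of 184 residues with the core. NM_033503 gave 8.79 and 8.43 CPM with shScr, 7.68 and 9.23 CPM under shRBM10#1, and 6.96 and 4.42 CPM under shRBM10#2, and NM_001003940 gave 4.72 and 2.37, 3.92 and 8.80, and 6.34 and 5.41 CPM. NM_001003943, which lacks the core, was listed at 0 in shScr replicate 1, at 2.43 CPM in shScr replicate 2, at 4.85 and 4.40 CPM under shRBM10#1 and at 2.05 and 2.93 CPM under shRBM10#2. As a share of BMF counts, NM_033503 took 65.1% and 63.8% with shScr, 46.8% and 41.2% under shRBM10#1, and 45.3% and 30.1% under shRBM10#2, so each KD library lay below both shScr libraries. The usage test did not call BMF with either shRNA (FDR = 1 in both, edgeR diffSpliceDGE). The share without the core was less steady within conditions. These isoforms took 0% of BMF counts in shScr replicate 1 (upper Wilson bound 0.869%) and 18.3% (14.997 to 22.3) in replicate 2, 29.5% and 19.6% with shRBM10#1, and 13.4% and 33.1% with shRBM10#2. No isoform passed with shRBM10#1 as the BMF total did, the log2 FC being −0.03 for NM_033503, 0.84 for NM_001003940 and 1.93 for NM_001003943 (FDR = 0.984, 0.514 and 0.647, edgeR). The last value depended on single libraries, running from 0.93 to 10.35 as each library was left out. NM_001003943 was listed at 0 in shScr replicate 1.

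For BBC3, NM_014417 (193 residues) and NM_001127241 (131 residues) both keep the core and together gave all of its TPM, except in shRBM10#2 replicate 1, where 3.76% went to NM_001127242, an isoform that lacks it. NM_014417 gave 7.004 and 5.25 CPM with shScr, 5.71 and 7.33 CPM under shRBM10#1, and 6.07 and 6.62 CPM under shRBM10#2. The conditions overlapped, as they did for NM_001127241 at 2.81 to 5.13 CPM. BAD came mostly from NM_032989, at 56.7 and 55.7 CPM with shScr, 51.3 and 53.7 CPM under shRBM10#1, and 50.04 and 46.7 CPM under shRBM10#2, and its log2 FC with shRBM10#2 of −0.22 was close to that of the gene (FDR = 0.126, edgeR; 0.0118, DESeq2). NM_004322 of BAD, which encodes the same protein of 168 residues, stayed between 3.85 and 5.43 CPM.

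**Figure D4:**
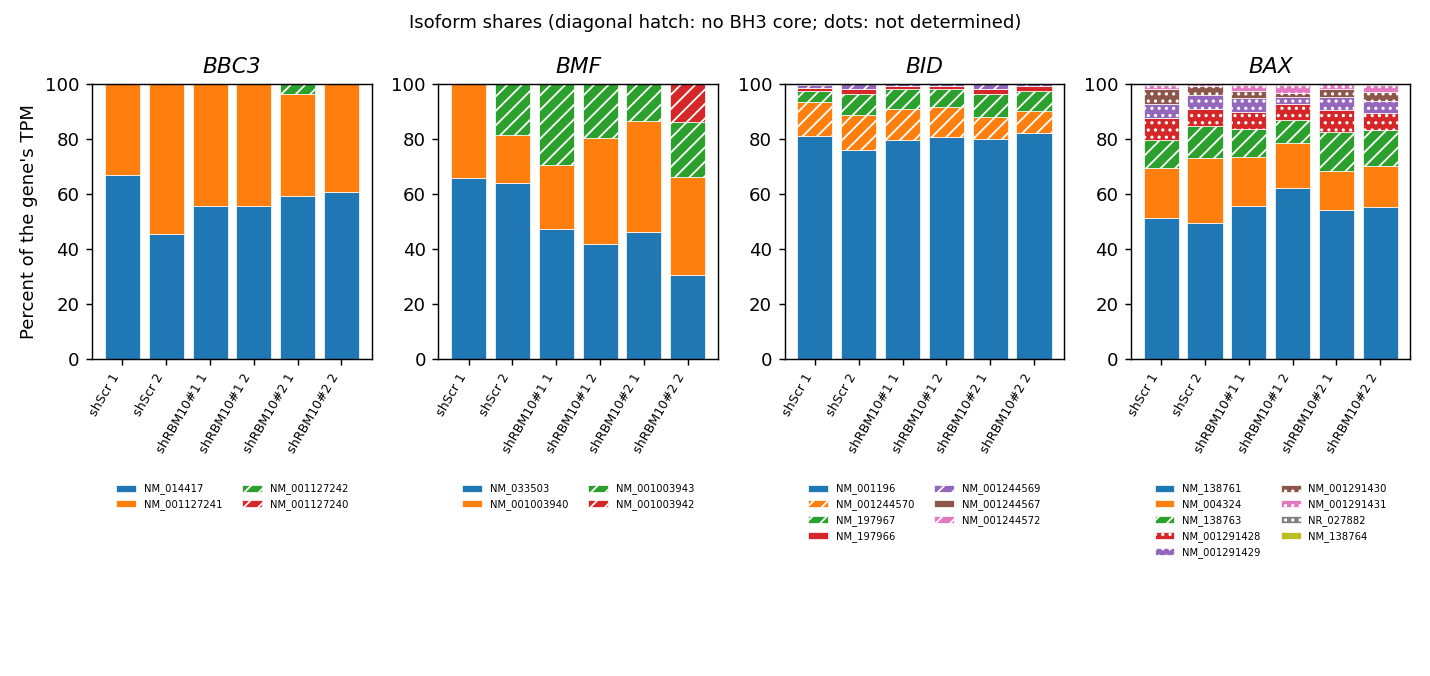
Share of each isoform in the TPM of BBC3, BMF, BID and BAX in each of the 6 libraries, in percent, with diagonal hatching for isoforms without the BH3 core and dots for isoforms not decided. NM_033503 of BMF takes 65.9% and 64.1% with shScr and 30.3% to 47.1% in the KD libraries, the core-less share of BMF is 0% and 18.6% in the shScr replicates, and that of BID stays between 15.9% and 22.2%.

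The genes around these members were read from lists of their regulators and partners. Of 9 transcription factors known to control BH3-only genes (the p53 family, FOXO1, FOXO3, E2F1, ATF4, DDIT3 and JUN), 4 were lower and 0 higher with shRBM10#1, where 6.92% of all genes were lower, and 2 were lower and 0 higher with shRBM10#2, where 13.9% were. JUN, a known activator of HRK, was lower with both shRNAs (log2 FC −0.34, FDR = 0.00261, and −0.62, FDR = 9.07e-05, edgeR), as was FOXO3, an activator of BBC3 (−0.30, FDR = 0.00983, and −0.44, FDR = 0.000760, edgeR). HRK and BBC3 themselves did not pass with either shRNA, at log2 FC of 0.17 and 0.24 for HRK and 0.09 and −0.05 for BBC3. ATF4 and DDIT3, the stress factors that act on PMAIP1 and BBC3, were lower with shRBM10#1 (−0.41, FDR = 0.00350, and −0.65, FDR = 0.0315, edgeR), and with shRBM10#2 they were at −0.17 (FDR = 0.119, edgeR) and −0.36 (FDR = 0.159, edgeR). Both comparisons rest on the same shScr libraries. In the pooled comparison 0 of these 9 passed (edgeR), JUN and FOXO3 having an FDR of 0.0598 and 0.0706. Whether these factors had a part in the levels of the members was not tested.

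Among the anti-apoptotic genes that the BH3-only proteins bind, 4 of 6 passed the filter. Of these 4, 1 was lower and 0 higher with shRBM10#1, where 6.92% of all genes were lower. With shRBM10#2, 2 were lower and 0 higher, where 13.9% of all genes were lower. BCL2L1, which encodes Bcl-x, was lower in the pooled comparison (log2 FC −0.44, FDR = 0.0242, edgeR) and with each shRNA (−0.41 and −0.46). MCL1 was lower with shRBM10#2 (−0.28, FDR = 0.00606, edgeR) and at −0.14 with shRBM10#1 (FDR = 0.147, edgeR). BCL2 and BCL2L2 did not pass with either shRNA. Their log2 FC was −0.18 and −0.16 with shRBM10#1 and 0.47 and 0.10 with shRBM10#2. BCL2L2 was higher with shRBM10#2 than with shRBM10#1 (0.26, FDR = 0.0158, edgeR), where 11% of all genes were higher. Of 13 partners and modifiers of the BH3-only proteins and effectors, 0 passed with shRBM10#1 (edgeR), and 1 rose and 3 fell with shRBM10#2, where 12% of all genes were higher and 13.9% lower. These 4 were picked out after their values were seen. CASP8, the protease that activates BID, was higher (0.37, FDR = 0.00508, edgeR), while DYNLL2, the dynein light chain that holds BMF, and AKT1 and RPS6KA1, kinases that phosphorylate BAD, were lower (−0.31, −0.23 and −0.21).

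The profile of BMF, the gene with the largest change called, was compared with that of every gene tested over the 6 libraries. The highest Pearson correlations of log2 CPM were with ZG16B (r = 0.997), OSR2 (r = 0.996) and MAGED2 (r = 0.995). These are the most alike of 14215 genes over 6 points that share their libraries, and are given as a description.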

How the data were processed

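RNA-Seq of 6 PC-9 libraries was analyzed. The authors deposited, for each RefSeq isoform and library, an expected count from RSEM, which need not be whole because shared reads are divided. The authors also deposited TPM, the level per transcript length as a share of all transcripts, and the percent of its gene given by each isoform. Lengths and effective lengths were deposited too, and FPKM was not used here. The submitters' processing notes name STAR 2.4, RSEM 1.2.29, edgeR and hg19. The authors' reads were not analyzed here.

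Expected counts were summed per gene and rounded, scaled by TMM (factors 0.979 to 1.02), filtered with filterByExpr by condition, and tested with edgeR 4.0.16 (quasi-likelihood) in R 4.3.3. FDR is the Benjamini-Hochberg adjusted p over all 14215 genes or 26464 isoforms tested, and the threshold was 0.05. Pooled KD against shScr was a 2-group fit, and each shRNA had its own coefficient in a second fit. Isoform usage was tested with diffSpliceDGE in 6405 genes. All tests were two-sided. Intervals of log2 FC are at 95%. DESeq2 1.42.0 and limma 3.58.1 (log2 of TPM with a pseudocount of 1) were alternatives, with DESeq2 size factors, no filter, at least 10 counts, at least 5% of the gene for usage, a replicate block and each library left out. SciPy 1.17.1 and matplotlib 3.10.9 under Python 3.11.15 gave intervals and figures. Wilson and Poisson intervals cover counting error only.

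The tests were tried on simulated counts with 200 features changed by a log2 FC of 2, of which 95.0% to 98.5% were recovered for genes. The 10 genes lay between −0.42 and 0.545 with the single shRNAs, and recovery of changes that small was not tried. Replicates differed by more than sampling noise (chi-square per degree of freedom 3.16 to 11.9). Sequences and coordinates come from GENCODE 29 on GRCh38, matched to all 32 isoforms by RefSeq identifier, and none was converted from hg19.

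The members, lists and tests were chosen with earlier results of these data known. Named are all members with their isoforms, RBM10, up to 6 genes of the lists with the smallest pooled p or called with both shRNAs, and the 3 genes most like the called member with the largest log2 FC. BCL2, BCL2L2, CASP8, DYNLL2, AKT1 and RPS6KA1, and the marker genes given values, were named after their values were seen. One further list of genes, acting after mitochondrial release, is not reported here.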

Additional observations from a re-analysis of the deposited data

Results flagged for a closer look

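In the comparison of the shRNAs with each other, 3 of the 10 genes differed (edgeR, FDR below 0.05), as did 25.5% of all genes. BMF was lower with shRBM10#2 than with shRBM10#1 (log2 FC −0.38, 95% interval −0.65 to −0.11), the shRBM10#1 libraries holding 16.5 and 22.4 CPM and the shRBM10#2 libraries 15.3 and 14.7 CPM. Without shRBM10#1 replicate 2 the difference was −0.14 (FDR = 0.377, edgeR). PMAIP1 was higher with shRBM10#2 (log2 FC 0.46, 95% interval 0.12 to 0.80), at 8.63 and 13.2 CPM against 14.6 and 15.6 CPM. BAX was lower with shRBM10#2 (log2 FC −0.24, 95% interval −0.42 to −0.07), at 65.1 and 66.1 CPM against 54.0 and 56.7 CPM. In Dixon's test over the 4 KD libraries none of the 10 genes held an outlying library at the 95% level, the largest ratio being 0.769 for BMF. The test takes both shRNAs as 1 group of only 4 values, so it cannot exclude an outlying library.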

How the results depend on the processing

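With 2 libraries per condition, calls near the threshold depended on single libraries. The count of genes passing ran, as each library was left out, from 0 to 1 with shRBM10#1, from 0 to 3 with shRBM10#2 and from 0 to 1 between the shRNAs, and it stayed at 0 in the pooled comparison, as it did for isoforms and usage in every comparison. Fewer libraries were in these fits, and the lone library of a condition was assumed to vary like the others. With limma on log2(TPM + 1) the counts were 0 with shRBM10#1, 0 with shRBM10#2 and 0 between the shRNAs, with no filter the count with shRBM10#1 was 2, and averaging the coefficients gave 2 in the pooled comparison. Isoforms with shRBM10#2 went from 0 to 4 in DESeq2 and to 2 where 10 counts were required in each library. The cause was not tested. All other counts kept within 1.5 times under the other alternatives.

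The replicate numbers did not pair the libraries (correlations of same-numbered deviations −0.0041, −0.0191 and −0.0133), and the block was an alternative only. With it the counts of genes were 0, 1, 2 and 2 in the pooled, shRBM10#1, shRBM10#2 and direct comparisons, BAD with shRBM10#2 (FDR = 0.0659, edgeR) and BAX between the shRNAs (FDR = 0.0560, edgeR) no longer passing.

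On log2(TPM + 1) a few small differences changed sign, to −0.055 for BBC3 in the pooled comparison, −0.0047 for BBC3 and −0.0316 for BID with shRBM10#1, and −0.0059 for PMAIP1 with shRBM10#2. With a library left out, log2 FC crossed 0 for genes not called. In the pooled comparison the ranges were −0.0689 to 0.0636 for BBC3 and −0.0282 to 0.21 for BID. With shRBM10#1 they were −0.0094 to 0.0084 for BAK1, −0.14 to 0.11 for BAX, −0.10 to 0.26 for BBC3 and −0.0579 to 0.18 for BID. With shRBM10#2 they were −0.30 to 0.18 for BIK and −0.0713 to 0.17 for PMAIP1, and between the shRNAs −0.31 to 0.0483 for BBC3. Isoforms that crossed 0 in the pooled comparison were NM_001291428 (−0.55 to 0.0943), NM_138761 (−0.10 to 0.21), NM_138763 (−0.15 to 0.0101), NM_001127241 (−0.46 to 0.41), NM_014417 (−0.12 to 0.29) and NM_001196 (−0.042 to 0.29). With shRBM10#1 they were NM_001291428 (−0.56 to 0.081), NM_001127241 (−0.28 to 0.59), NM_014417 (−0.10 to 0.31), NM_001196 (−0.0751 to 0.26) and NM_033503 (−0.16 to 0.10). With shRBM10#2 they were NM_001291428 (−0.54 to 0.11), NM_138761 (−0.28 to 0.0445), NM_001127241 (−0.65 to 0.21), NM_014417 (−0.15 to 0.27) and NM_001196 (−0.0096 to 0.33).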
